A study of Mus musculus with 12 samples.

Results

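The Hox gene clusters were described through the 38 of 33531 rows of the deposited expression table whose symbol is Hox, a cluster letter from a to d and a paralog number. These rows were 11 genes of HoxA, 10 of HoxB, 9 of HoxC and 8 of HoxD, of 39 Hox symbols in RefSeq, and the remaining symbol was not analysed here. The rows were taken by symbol alone, but the Hox genes were chosen as a set with earlier results of these data known. Polyadenylated RNA was sequenced from 4 cell populations sorted out of the dorsal aorta, umbilical and vitelline arteries of 122 mouse embryos at embryonic day 11.5, with 3 pools of sorted cells, and so 3 libraries, in each population. Every embryo came from a C57BL/6 x 129S1/SVImJ F1 mother and a Tg(Ly6a-GFP) father and carried the Ly6a-GFP transgene, so the GFP-negative cells are transgenic cells without visible reporter and there is no population without the transgene. All cells were sorted as CD31+ CD144+ ESAM+. Hematopoietic cluster cells (HC), which bud from the arterial wall, were in addition c-Kit+ and gave 53000 cells with GFP (HC GFP+) and 413000 without (HC GFP-), and endothelial cells (EC), which line the artery, were c-Kit- and gave 377000 cells with GFP (EC GFP+) and 791000 without (EC GFP-). GFP marks cells in which the Ly6a regulatory sequence is active, and Ly6a encodes Sca-1, a surface protein of hematopoietic stem cells. The pools hold cells from many embryos and from 3 arteries, so the place of a cell along the body is not known.

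Hox genes encode homeodomain transcription factors that give cells their position along the head-to-tail axis. In mammals they lie in clusters on separate chromosomes, and genes with the same paralog number are copies of the same ancestral gene. Low numbers lie at the 3' end of a cluster and come on early and towards the head, and high numbers lie at the 5' end and come on later and towards the tail. In blood, Hoxa9 is known as a regulator of stem cell self-renewal, Hoxb4 as a factor that expands stem cells when it is overexpressed, and the Meis and Pbx proteins as partners that bind DNA together with Hox proteins.

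Of the Hox genes of paralog number 9, Hoxb9 and Hoxc9 passed the threshold between GFP+ and GFP- cells in EC and not in HC. For neither did the effect of GFP differ past the threshold between HC and EC, so a difference between the cell types is not shown. The log2 difference of Hoxc9 was -0.75 in HC and -0.70 in EC. Hoxa9 and Hoxd9 differed past the threshold between GFP+ and GFP- cells in both cell types, in opposite directions. In HC they were 2 of 32 tested genes, close to the 4.26% of all genes that passed, and they were picked after the results were seen. Their promoters are shown so that the pair can be set side by side as sequence. The sequences are the 250 bases before the transcription start in RefSeq (build GRCm38.p6), 5' to 3' on the gene's strand, at chr6:52227371-52227620 on the minus strand for Hoxa9 and chr2:74697513-74697762 on the plus strand for Hoxd9, and the capitals mark each CpG dinucleotide, the substrate of DNA methylation in mammals.
Hoxa9: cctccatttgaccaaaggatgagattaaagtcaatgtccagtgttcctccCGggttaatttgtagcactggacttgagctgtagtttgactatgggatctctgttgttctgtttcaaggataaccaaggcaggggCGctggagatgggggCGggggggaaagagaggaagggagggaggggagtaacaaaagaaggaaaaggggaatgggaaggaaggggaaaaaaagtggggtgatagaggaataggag
Hoxd9: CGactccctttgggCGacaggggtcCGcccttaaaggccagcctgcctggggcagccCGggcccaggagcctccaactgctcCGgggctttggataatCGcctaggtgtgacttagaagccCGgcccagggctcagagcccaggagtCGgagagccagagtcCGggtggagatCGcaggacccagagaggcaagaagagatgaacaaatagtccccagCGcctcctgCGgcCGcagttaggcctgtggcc
The Hoxa9 window held 3 CpG and 49.6% G or C, and the Hoxd9 window 13 CpG and 65.2%, beside medians of 6 CpG and 52.4% over 32851 promoter windows of the same length. Windows were at hand for 21 of the Hox genes, 23 windows in all. A composite site for Hox and Pbx proteins was searched as TGATTNAT and a Cdx site as TTTATNG, on both strands, and these letters occur in 2.82% and 9.81% of all windows. Neither was found in the windows of Hoxa9 and Hoxd9. The Hox and Pbx letters were found in 2 of the 23 windows, 1 of Hoxa2 and 1 of the 2 windows of Hoxd11. The Cdx letters were found in 1 window, that of Hoxb8, the HoxB gene with the highest level, at chr11:96281655-96281904 on the plus strand, where they occurred 3 times (capitals).
Hoxb8: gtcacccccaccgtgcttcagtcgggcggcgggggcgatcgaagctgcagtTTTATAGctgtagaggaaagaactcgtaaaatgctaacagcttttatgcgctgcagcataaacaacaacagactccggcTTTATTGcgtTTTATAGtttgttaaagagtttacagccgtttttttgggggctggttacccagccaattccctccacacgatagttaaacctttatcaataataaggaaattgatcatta
A match or its absence describes these letters only.

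Levels are in FPKM, fragments per kilobase of transcript and fragments of the library as the authors gave them, so levels of different genes may be compared within a library. The summed FPKM of a library was 555675 to 691948, and steps in the low values placed the relative depth of the 12 libraries between 0.73 and 1.18 of their median, with absolute depth unknown. RNA of the sorted proteins ran with the labels: Pecam1 (CD31), Cdh5 (CD144) and Esam were above FPKM 123 in every library, Ly6a was 3.57 to 9.05 in GFP+ and at most 1.47 in GFP- libraries, and Kit was 19.1 to 39.2 in HC and 12.6 to 18.6 in EC. The 10 hematopoietic markers summed to 338 to 601 in HC GFP+, 116 to 245 in HC GFP-, 75.5 to 86.0 in EC GFP+ and 46.4 to 58.4 in EC GFP-. Markers of other cells were present too. The 16 mesenchyme markers, none of them at 0 in the table, summed to 413 to 816 in HC GFP+, 606 to 1753 in HC GFP-, 396 to 699 in EC GFP+ and 420 to 1721 in EC GFP-. The 9 red cell markers summed to 822 to 1139, 6227 to 9549, 931 to 2373 and 3288 to 7627 in the same order, and the 8 macrophage markers to 218 to 1352, 231 to 753, 7.57 to 29.6 and 9.08 to 14.8. The part of red cells and macrophages in the Hox differences was not tested. In sorted pools, fewer cells of a type and less RNA per cell cannot be told apart.

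All 4 populations expressed a broad set of Hox genes, centred on the middle and 5' parts of HoxA. The genes with the highest mean FPKM over the 12 libraries were Hoxa9 (30.6), Hoxa5 (21.7), Hoxd8 (16.0), Hoxa10 (15.7), Hoxb8 (12.9), Hoxa7 (11.9) and Hoxb9 (10.7), while the highest HoxC gene was Hoxc6 (4.93). The summed FPKM of all 38 genes was 237 ± 19.4 (SD, n = 3) in HC GFP+, 232 ± 7.45 in HC GFP-, 220 ± 13.2 in EC GFP+ and 203 ± 10.3 in EC GFP-. Genes of paralog number 9 made up the largest part of that sum in HC GFP+ (26.7%), HC GFP- (21.4%) and EC GFP+ (23.7%), and in EC GFP- they held 17.1% and number 8 held 17.3%. The ends of the clusters were quiet. Hoxb1, Hoxb13, Hoxc12, Hoxc13 and Hoxd1 stayed under FPKM 1 in every library, and Hoxd12 reached at most 1.14. These 6 genes did not pass the filter of FPKM 1 or more in at least 3 libraries, and the other 32 genes were tested (11 of HoxA, 8 of HoxB, 7 of HoxC and 6 of HoxD).

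**Figure D1:**
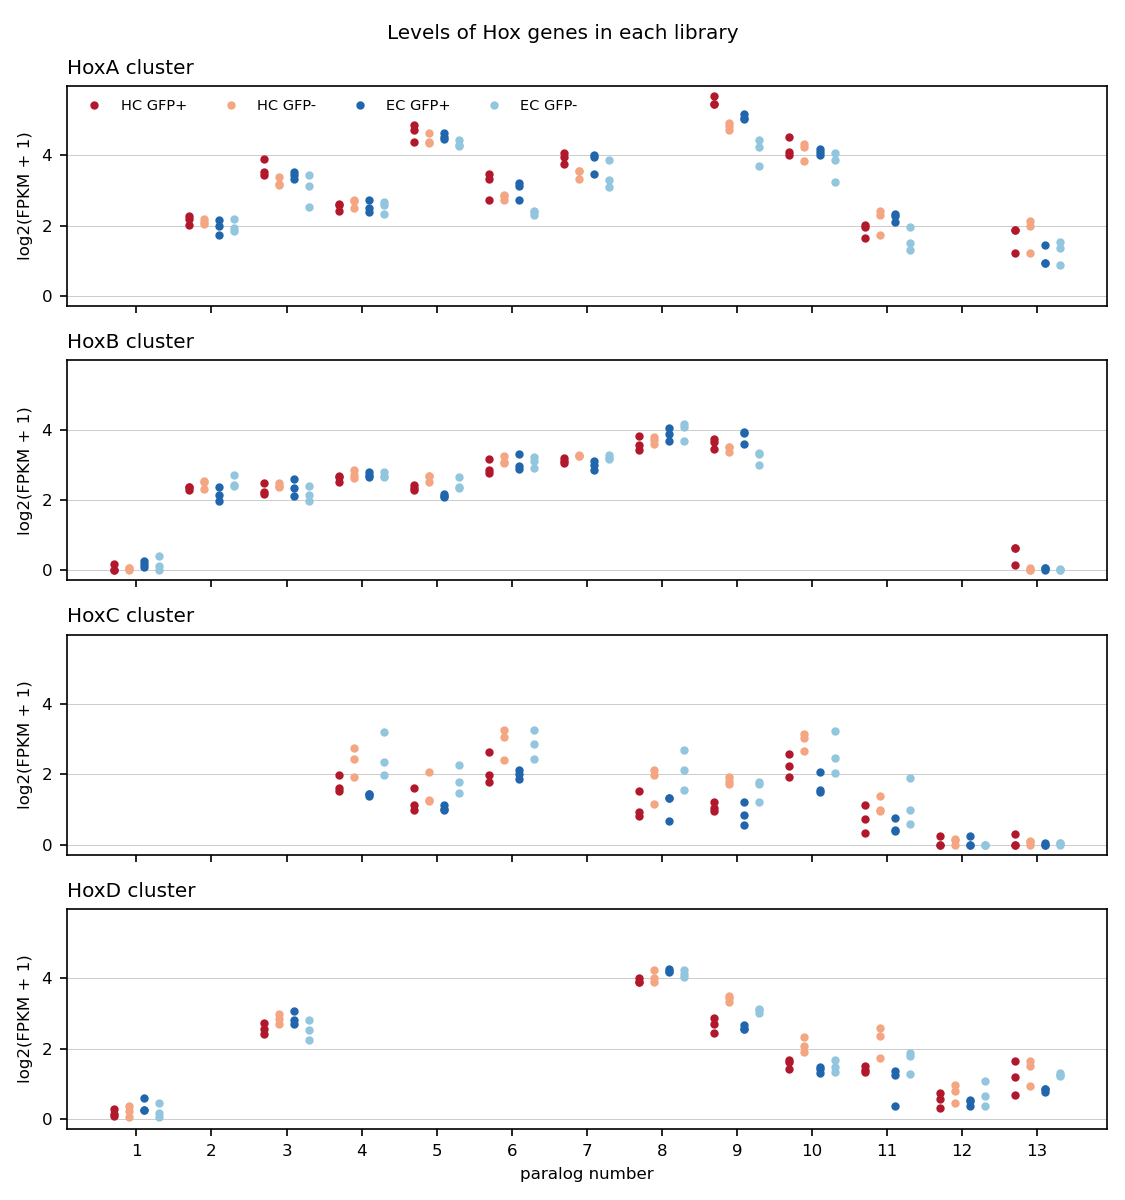
Level of the Hox genes, as log2(FPKM + 1), in each of the 12 libraries (1 point a library, colour by population), by cluster (panels) and paralog number (x axis). Hoxa9 has the highest mean over the 12 libraries, but in EC GFP- the mean of Hoxa5 is higher (19.1 against 16.8 FPKM). No HoxC gene is above 8.56 FPKM in any library, and Hoxb1, Hoxb13, Hoxc12, Hoxc13 and Hoxd1 lie near 0.

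The makeup of the Hox sum separated GFP+ from GFP- libraries of both cell types, while the sums themselves overlapped (216 to 255 against 223 to 237 in HC, 205 to 229 against 192 to 212 in EC). HoxA held 56.7 to 60.1% of the sum in HC GFP+ libraries and 44.3 to 46.9% in HC GFP-. In EC the HoxA share was 53.1 to 54.3% with GFP and 39.5 to 43.0% without, so the GFP+ libraries lay above the GFP- libraries in both cell types. HoxC ran the other way, with 4.50 to 7.69% against 8.27 to 13.99% in HC and 4.42 to 5.67% against 8.41 to 18.7% in EC. HoxD held 12.3 to 13.4% against 16.7 to 18.4% in HC and 14.7 to 15.4% against 16.6 to 18.5% in EC, again without overlap. HoxB held 22.9 to 23.1% against 23.9 to 26.5% in HC, without overlap, and 26.1 to 26.6% against 25.2 to 30.1% in EC, with overlap. The summed level of HoxB had means of 54.5, 58.1, 57.9 and 57.4 FPKM in HC GFP+, HC GFP-, EC GFP+ and EC GFP-. These shares are a description over the members and carry no test.

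**Figure D2:**
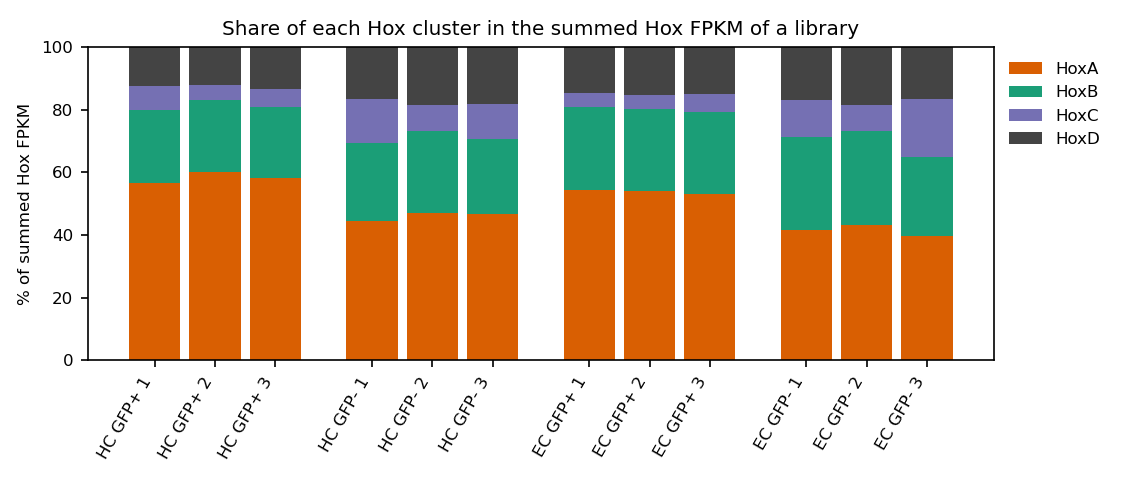
Share of HoxA, HoxB, HoxC and HoxD in the summed Hox FPKM of each library, in percent (1 bar a library, stacked to 100). The HoxA share is above 53% in all 6 GFP+ libraries and at most 46.9% in the 6 GFP- libraries.

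In cluster cells the question was which Hox genes separated GFP+ from GFP- cells. Of the 32 tested genes Hoxa9 was higher and Hoxd9 lower in GFP+ cells, and the other 30 did not pass the threshold (limma on log2(FPKM + 1), adjusted p under 0.05 over 13278 genes). Over all genes 4.26% passed in this comparison, 2.98% higher and 1.28% lower, so a count of 2 of 32 is close to that background. At an unadjusted p under 0.05 there were 3 genes higher and 8 lower, where 17.0% of all genes passed in either direction.

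Hoxa9 stood at 42.6, 50.4 and 42.9 FPKM in the 3 HC GFP+ libraries and at 25.2, 27.5 and 29.3 in the HC GFP- libraries. Every GFP+ library was above every GFP- library. The means were 45.3 ± 4.42 and 27.3 ± 2.06 (SD, n = 3), a log2 difference of 0.71 ± 0.16 (SE, limma, adjusted p = 0.0283). The call was near the threshold. It was lost when any 1 of the 6 HC libraries was left out, with no filter on low values, and with the mesenchyme score of each library as a covariate (log2 difference 0.58, adjusted p = 0.117). Over all 20 alternatives the difference stayed between 0.58 and 0.76 and the adjusted p between 0.00222 and 0.117.

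Hoxd9, the HoxD copy of the same paralog number, was the reverse. It stood at 5.54, 6.27 and 4.42 FPKM in HC GFP+ and at 9.04, 9.86 and 10.3 in HC GFP-, with no overlap. The means were 5.41 ± 0.932 and 9.74 ± 0.641 (SD, n = 3), a log2 difference of -0.75 ± 0.12 (SE, limma, adjusted p = 0.00405). The call held under all 20 alternatives, with the difference between -0.85 and -0.64. The ratio of Hoxa9 to Hoxd9, a value within each library that no scaling between libraries can move, was 7.69, 8.05 and 9.71 in HC GFP+ and 2.79, 2.79 and 2.84 in HC GFP-. Its separation follows from the levels of both genes given above and is no further result.

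The other members of the paralog number 9 group were not called in cluster cells. Hoxb9 was 12.3, 11.7 and 9.86 FPKM with GFP and 10.4, 10.4 and 9.30 without, and the libraries overlapped (log2 difference 0.15 ± 0.13). Hoxc9 was low, at 1.30, 1.06 and 0.946 FPKM with GFP and 2.78, 2.31 and 2.49 without. Its libraries did not overlap, and its log2 difference of -0.75 ± 0.20 did not pass (adjusted p = 0.0714).

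**Figure D3:**
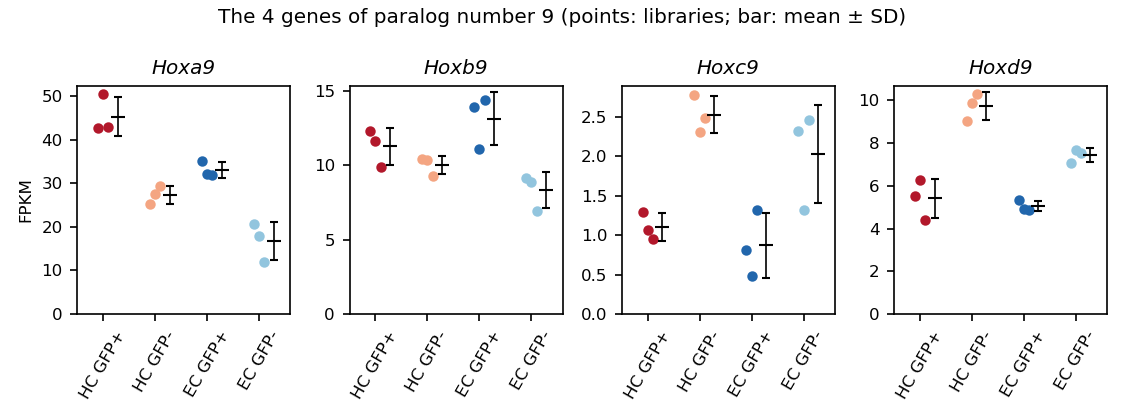
FPKM of Hoxa9, Hoxb9, Hoxc9 and Hoxd9 in each library of the 4 populations (points; the black bar is mean ± SD, n = 3; each panel has its own scale from 0). Hoxa9 is higher and Hoxd9 lower in the GFP+ libraries of both HC and EC without overlap.

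By cluster, the differences in cluster cells leaned apart. Of the HoxA genes 8 of 11 had a positive difference, with a median of 0.20. The median was -0.12 for HoxB (1 of 8 positive), -0.67 for HoxC (0 of 7) and -0.40 for HoxD (0 of 6), beside 0.00 over all genes tested. In 11 of the 32 genes the GFP+ and GFP- libraries did not overlap, where 23.6% of all genes did not. The 4 genes higher without overlap were all of HoxA, Hoxa7 and Hoxa9 among them, and 7 of HoxB, HoxC and HoxD were lower, where 13.0% and 10.5% of all genes were higher and lower without overlap. The highest genes of the other clusters did not pass. Hoxb8 was 13.2, 10.8 and 9.70 FPKM with GFP and 11.2, 12.01 and 12.9 without, Hoxd8 was 13.8, 13.9 and 15.04 against 13.9, 17.8 and 15.1, and both overlapped. Hoxc6 was 5.23, 2.93 and 2.44 against 8.51, 4.30 and 7.31, where the highest GFP+ library lay above the lowest GFP- library.

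**Figure D4:**
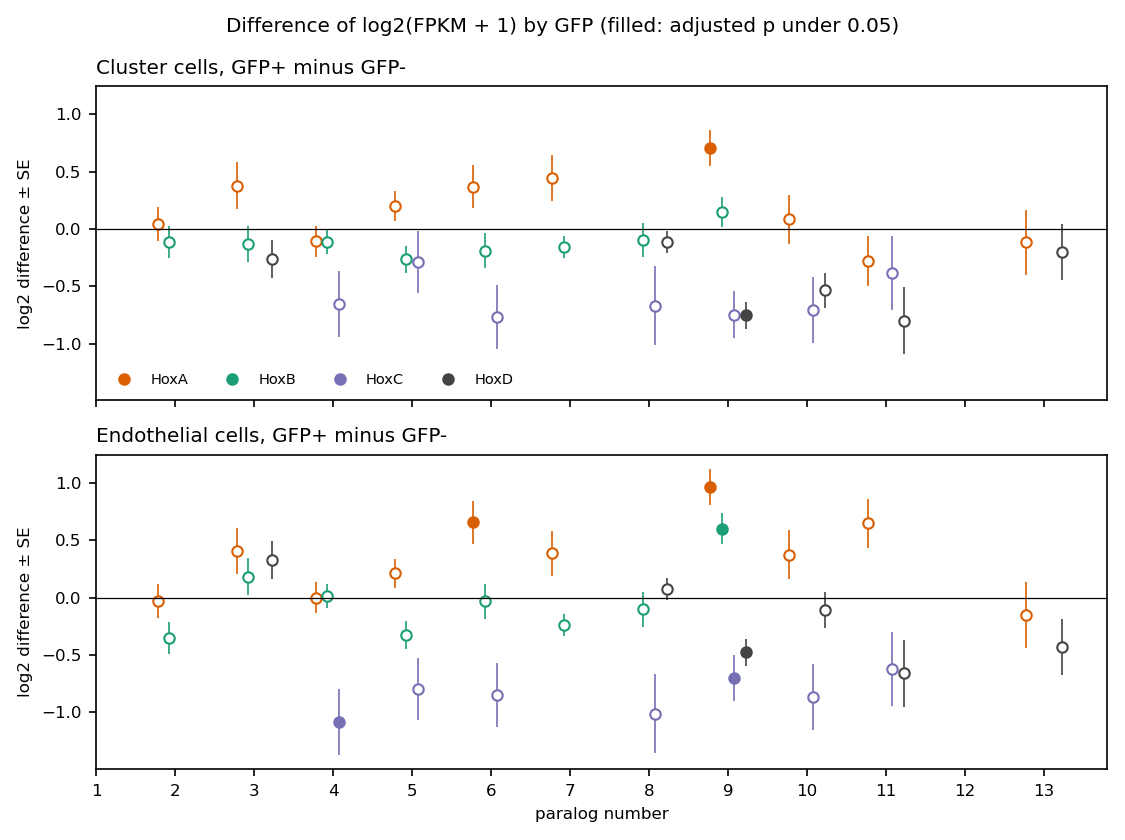
Log2 difference of GFP+ minus GFP- (log2(FPKM + 1), point) with its SE (bar) for 31 of the 32 tested Hox genes by paralog number and cluster (colour), in HC (top) and EC (bottom). Filled points passed an adjusted p of 0.05, and all HoxC points lie below 0 in both panels.

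In endothelial cells the same split by GFP gave more calls. Hoxa9, Hoxb9 and Hoxa6 were higher in GFP+ cells, Hoxd9, Hoxc4 and Hoxc9 were lower, and 26 of 32 tested genes did not pass. Over all genes 13.5% passed, 6.96% higher and 6.51% lower, beside 18.8% of the Hox genes (6 of 32). Unadjusted, 5 genes were higher and 11 lower, where 28.7% of all genes passed in either direction.

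Hoxa9 was 35.2, 32.2 and 31.9 FPKM in EC GFP+ and 20.6, 17.9 and 11.99 in EC GFP-. Every GFP+ library was above every GFP- library, and the level of EC GFP+ was above that of HC GFP-. The means were 33.1 ± 1.81 and 16.8 ± 4.41 (SD, n = 3), a log2 difference of 0.97 ± 0.16 (SE, limma, adjusted p = 0.0026). The call held under all 20 alternatives, with the difference between 0.75 and 1.16.

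Hoxb9 was 13.9, 11.1 and 14.4 FPKM with GFP and 9.15, 8.85 and 6.93 without, with no overlap. Its log2 difference was 0.60 ± 0.13 (SE, adjusted p = 0.0132). The call was lost without EC GFP+ replicate 1, without EC GFP+ replicate 3, and when the EC libraries were fitted alone (adjusted p = 0.0622, the highest of a range from 0.00716). Hoxa6 was 7.70, 5.63 and 8.32 FPKM with GFP and 3.92, 4.31 and 4.24 without, also with no overlap. Its log2 difference was 0.66 ± 0.19 (adjusted p = 0.0421), and the call was lost under 13 of 20 alternatives, among them leaving out any EC library other than EC GFP+ replicate 2 and any HC library other than HC GFP+ replicates 2 and 3. In RefSeq the Hoxa6 gene overlaps Hoxa3 and a non-coding gene, Hoxaas3, so its reads may not all be its own.

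Hoxd9 was lower, at 5.35, 4.94 and 4.88 FPKM with GFP and 7.08, 7.70 and 7.53 without. The libraries did not overlap, and the log2 difference was -0.48 ± 0.12 (SE, adjusted p = 0.0220). The call was lost without EC GFP+ replicate 2 or 3, without EC GFP- replicate 3, with the EC libraries fitted alone (adjusted p = 0.0548), and after all libraries were brought to the same FPKM sum (-0.30, adjusted p = 0.149, the highest of a range from 0.00892). The ratio of Hoxa9 to Hoxd9 was 6.57, 6.51 and 6.53 in EC GFP+ and 2.91, 2.32 and 1.59 in EC GFP-. As in cluster cells, every GFP+ library had the higher ratio, which follows from both genes being separated in opposite directions and is no further result.

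The HoxC calls rested on low levels that varied between GFP- pools. Hoxc4 was 1.60, 1.72 and 1.74 FPKM with GFP and 4.10, 2.96 and 8.12 without (log2 difference -1.08 ± 0.29, adjusted p = 0.0316). Hoxc9 was 0.807, 0.486 and 1.32 FPKM with GFP and 2.32, 1.32 and 2.46 without (-0.70 ± 0.20, adjusted p = 0.0442). For Hoxc9 the highest GFP+ library, 1.316, lay just under the lowest GFP- library, 1.324. The Hoxc4 call was lost under 8 of 19 alternatives, among them leaving out any EC library other than EC GFP- replicate 2. The Hoxc9 call was lost under 13 of 19, among them leaving out any EC library other than EC GFP+ replicate 3 and EC GFP- replicate 2, and any HC library other than HC GFP+ replicate 3, and its difference reached -1.18 with a pseudocount of 0.1.

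All 7 HoxC genes tested had estimates below 0 for EC GFP+ against EC GFP- cells (median -0.85, range -1.08 to -0.62), and 5 of them were without overlap. The median was 0.39 for HoxA (8 of 11 positive), -0.07 for HoxB (3 of 8, and 0.12 once the libraries had the same FPKM sum) and -0.27 for HoxD (2 of 6), beside -0.03 over all genes. In 16 of 32 genes the EC libraries did not overlap, 6 higher and 10 lower, where 31.6% of all genes did not overlap, 14.8% higher and 16.7% lower. The highest HoxC gene, Hoxc6, was 2.66, 3.05 and 3.39 FPKM with GFP and 6.28, 4.43 and 8.56 without, with no overlap (adjusted p = 0.0703). Hoxb8 was 13.7, 11.7 and 15.6 against 16.9, 15.7 and 11.8 and Hoxd8 was 18.2, 17.4 and 17.1 against 17.7, 16.6 and 15.6, and both overlapped. Bringing the libraries to the same FPKM sum moved the median of all genes from -0.03 to 0.14 and the Hox calls from 3 higher and 3 lower to 5 higher, Hoxa9 and Hoxb9 among them, and 1 lower (Hoxc4). Without EC GFP- replicate 2 there were 10 calls, 3 higher and 7 lower, among them 6 HoxC genes.

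Markers of mesenchyme, the loose embryonic tissue around the arteries, moved with HoxC between libraries. Their score, the mean log2(FPKM + 1) of the 16 markers, was lowest in replicate 2 of each population, GFP+ and GFP-. In HC GFP- it was 4.18 beside 5.44 and 5.41, and in EC GFP- it was 3.79 beside 5.05 and 5.56. Mesenchyme was not the only list to move. The score of mesonephros and epithelium markers was also lowest in replicate 2 of HC GFP- (2.29) and EC GFP- (1.96). The score of the endothelium markers was highest in these libraries (8.03 and 8.10). The summed FPKM of HoxC was also lowest in replicate 2 of each population. In replicate 2 of both GFP- populations all 7 tested HoxC genes were at their lowest of the 3 pools. The same held in both for 4 of 11 HoxA, 0 of 8 HoxB and 1 of 6 HoxD genes, and the share over all genes was not computed. In the GFP+ populations it did not hold for every HoxC gene, with Hoxc6 lowest in replicate 3 (HC) and replicate 1 (EC). With the score as a covariate the HoxC median went from -0.67 to -0.17 in HC and from -0.85 to -0.43 in EC, and Hoxc4 (adjusted p = 0.0707, range over alternatives 0.0126 to 0.0889) and Hoxc9 (adjusted p = 0.154, range 0.0167 to 0.154) were no longer called in EC. With that covariate the HoxA median was 0.28 in HC and 0.34 in EC. Hoxd9 stayed called in HC (-0.78, adjusted p = 0.0135) and EC (-0.50, adjusted p = 0.0479), and Hoxa9 in EC (0.85, adjusted p = 0.0136). Calls in HC were then Hoxa7 and Hoxa10 higher and Hoxd9 lower, and in EC Hoxa7, Hoxa9, Hoxa10, Hoxa11 and Hoxb9 higher and Hoxd9 lower. A covariate is a fit over 12 libraries, and the part of mesenchyme cells in these differences was not tested beyond it.

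**Figure D5:**
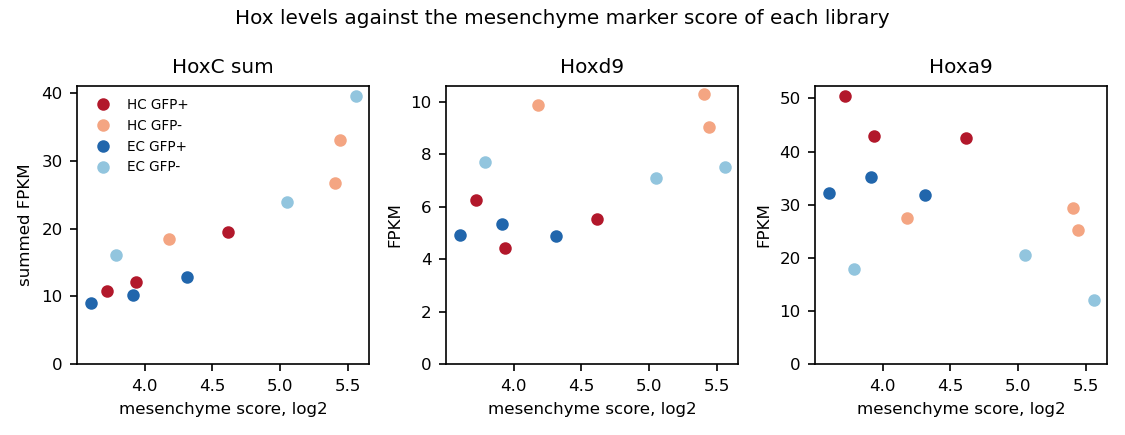
Summed FPKM of HoxC and FPKM of Hoxd9 and Hoxa9 (y axes, from 0) against the mesenchyme score of each library, the mean log2(FPKM + 1) of 16 markers (x axis), coloured by population. HC GFP- replicate 2, at a score of 4.18, has 18.5 FPKM of HoxC beside 33.2 and 26.8 in the other pools of that population, and its Hoxd9 level, 9.86, lies between theirs.

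Cluster cells and endothelial cells of the same GFP state were compared next. Among GFP+ cells 0 of 32 Hox genes were called, where 14.3% of all genes were. At an unadjusted p under 0.05 there were 2, Hoxa9 higher in HC (0.44 ± 0.16, adjusted p = 0.0897) and Hoxd8 lower (-0.28 ± 0.10, adjusted p = 0.0772), where 27.8% of all genes passed. The HC GFP+ and EC GFP+ libraries did not overlap in 5 of the 32 genes, where 33.3% of all genes did not.

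Among GFP- cells Hoxa9 was higher in HC than in EC (27.3 ± 2.06 against 16.8 ± 4.41 FPKM, SD, n = 3, log2 difference 0.70 ± 0.16, adjusted p = 0.0344), with no overlap, and the other 31 genes did not pass, where 4.29% of all genes did, 2.36% higher and 1.93% lower in HC. A count of 1 of 32 is close to that background. The HC GFP- and EC GFP- libraries did not overlap in 5 of the 32 genes, where 23.8% of all genes did not. The Hoxa9 call was lost under 7 of 20 alternatives, which were each HC GFP- library left out, EC GFP+ replicate 1 or 3 left out, no filter, and the GFP- libraries fitted alone. Hoxd10 came next (3.34 ± 0.612 against 1.86 ± 0.341 FPKM, 0.60 ± 0.15, adjusted p = 0.0552), and it was called under 3 of 19 alternatives, among them equal FPKM sums and leaving out HC GFP- replicate 2. By mean, Hoxa9 had the order HC GFP+, EC GFP+, HC GFP-, EC GFP-, of which the first pair did not differ past the threshold. EC GFP+ and HC GFP- were not compared by a test, and their libraries did not overlap (25.2 to 29.3 and 31.9 to 35.2 FPKM).

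The effect of GFP was compared between cluster and endothelial cells gene by gene, and 0 of 32 Hox genes differed (limma, where 0.527% of all genes did). At an unadjusted p under 0.05 there were 3, where 11.5% of all genes passed. Hoxa11 was the first of them, at -0.28 in HC and 0.65 in EC (difference -0.93 ± 0.30, adjusted p = 0.247). Hoxd3 (-0.59 ± 0.23, adjusted p = 0.355) and Hoxb9 (-0.45 ± 0.19, adjusted p = 0.382) followed. For Hoxa9 the effect in HC minus that in EC was -0.26 ± 0.22 and for Hoxd9 -0.28 ± 0.17. For Hoxa6, called in EC and not in HC, it was -0.29 ± 0.27 (adjusted p = 0.760), so these data do not show a difference between the cell types for it.

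The proteins that bind DNA with Hox proteins were expressed in all populations. Of the 9 tested genes of the Pbx, Meis and Pknox families, limma called 0 in each of the 5 comparisons. Over all genes 4.26% were called for GFP in HC and 13.5% in EC. The shares were 14.3% for HC against EC with GFP, 4.29% without GFP, and 0.527% for the difference of GFP effects. Pbx2 was the highest, at 64.8 to 83.1 FPKM over the 12 libraries. Meis1, a known partner of Hoxa9 in blood, was 29.5 ± 2.66 FPKM in HC GFP+, 22.3 ± 7.75 in HC GFP-, 16.6 ± 1.25 in EC GFP+ and 15.4 ± 5.04 in EC GFP-, and its difference between HC GFP+ and EC GFP+ was 0.79 ± 0.26 (adjusted p = 0.0691). Unadjusted, Meis2 was lower with GFP in HC, where 17.0% of all genes passed in either direction. Meis3, Meis2 and Pknox1 were lower with GFP in EC, where 28.7% of all genes passed. Meis1 and Pknox1 were higher in HC GFP+ than in EC GFP+, where 27.8% of all genes passed. The other comparisons had 0 such genes, where 19.2% (HC GFP- against EC GFP-) and 11.5% (difference of GFP effects) of all genes passed.

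Of 30 genes for chromatin and Cdx regulators of Hox genes 27 were tested. In cluster cells none passed for GFP (smallest adjusted p 0.0633, for the Polycomb gene Cbx2), where 4.26% of all genes did. Unadjusted, 3 were higher and 1 lower, where 17.0% of all genes passed in either direction. In endothelial cells 3 were higher with GFP and 0 lower, and 11.1% called is no more than the 13.5% of all genes. They were Pcgf2 of the Polycomb group (23.9 against 18.9 FPKM, log2 difference 0.32), Mllt3 (14.5 against 9.09 FPKM, 0.62) and Aff1 (4.01 against 2.60 FPKM, 0.48), the last 2 known as fusion partners of the Hox activator Kmt2a in leukaemia. Phc2, a Polycomb gene and the highest of the list, was lower in HC GFP+ than in EC GFP+ (-0.35, adjusted p = 0.0176). The 3 Cdx genes, early activators of Hox genes in the embryo, were not tested, and the highest value of any of them was 0.754 FPKM, for Cdx2 in HC GFP+ replicate 1.

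Other genes inside or next to the clusters were mostly low or listed at 0. Of the 22 rows of this list 13 stayed under FPKM 1 and 9 were tested. The 5 microRNA genes inside the clusters, whose mature forms lack the poly(A) tail used to select RNA, were listed at 0 in every library, as was Mir7-1, which is in the list but lies outside the clusters in RefSeq. With GFP in HC 0 of the 9 were called (beside 4.26% of all genes) and in EC 2 (22.2%, beside 13.5% of all genes). With GFP in EC, Hoxa11os, which runs opposite to Hoxa11, was higher (11.1 against 6.21 FPKM, 0.76 ± 0.15, adjusted p = 0.00894) and 2700086A05Rik, the Hoxaas3 of RefSeq, was lower (7.05 against 11.7 FPKM, -0.65 ± 0.18, adjusted p = 0.0400). Gm15051, the Hotairm1 of RefSeq, was lower in HC GFP+ than in EC GFP+ (12.2 against 32.2 FPKM, -1.41 ± 0.37, adjusted p = 0.0249). No strand setting of the counting is given in the sources used here, so reads of these genes and of the Hox genes they overlap cannot be told apart. This touches 19 of the 38 Hox genes, which overlap some other gene in RefSeq, while Hoxa9, Hoxb9 and Hoxd9 overlap none.

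The coding genes that flank the clusters were read to see whether differences ran past the cluster borders. Hnrnpa1, beside HoxC, was the highest of them, at 525 to 687 FPKM over the 12 libraries. In cluster cells 1 of 19 tested neighbours (5.26%, beside 4.26% of all genes) was called, Nfe2, an erythroid and megakaryocyte factor beside HoxC (16.0 against 4.43 FPKM, 1.63 ± 0.32, adjusted p = 0.0144), which was higher with GFP while the HoxC estimates were lower. In endothelial cells 4 were higher (Skap2, Nfe2l1, Calcoco1 and Jazf1) and 2 lower (Cbx1 and Atp5g3), 31.6% of the 19 beside 13.5% of all genes. Skap2, beside HoxA, was 48.8 against 35.7 FPKM (0.44 ± 0.09, adjusted p = 0.0112), and Cbx1, beside HoxB, was 79.1 against 110 FPKM (-0.48 ± 0.08, adjusted p = 0.00321).

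Retinoic acid is a signal that activates the 3' Hox genes, and its pathway had 1 gene called for GFP. Of 12 tested genes of 16 (8.33% called for GFP in EC, beside 13.5% of all genes), Cyp26a1, which encodes an enzyme that degrades retinoic acid, was higher with GFP in EC (2.73 against 0.459 FPKM, 1.34 ± 0.19, adjusted p = 0.00101) and not in HC, and the difference between those effects passed (-1.54 ± 0.26, adjusted p = 0.0298). No retinoic acid gene was called for GFP in HC, where 4.26% of all genes were. Of the 12 tested, 1 passed unadjusted there, where 17.0% of all genes did.

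A list of other developmental factors was read beside the Hox genes. Of its 20 genes, 17 tested, 2 were higher and 1 lower with GFP in HC (17.6%, beside 4.26% of all genes), and 3 higher and 1 lower in EC (23.5%, beside 13.5%). Nkx2-3, a homeobox gene of gut and spleen mesoderm, was higher with GFP in HC (12.8 against 7.09 FPKM, 0.77 ± 0.09, adjusted p = 0.0010) and in EC (27.4 against 9.42 FPKM, 1.44 ± 0.09, adjusted p = 4.97e-06). Lyl1, which is in the list but encodes a basic helix-loop-helix factor, was higher in HC (0.54 ± 0.11) and EC (0.93 ± 0.11). Msx1, a homeobox gene of limb and facial mesenchyme, was lower in HC (2.43 against 5.69 FPKM, -0.93 ± 0.20, adjusted p = 0.0222) and EC (4.98 against 10.5 FPKM, -0.94 ± 0.20, adjusted p = 0.0105).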

How the data were processed

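The authors deposited 1 table of FPKM values per gene symbol for the 12 libraries. The submitters' processing notes name edgeR, DESeq, featureCounts and Cufflinks and the genome build mm9. Which tool did what, its version, the aligner, the annotation and the strand setting are not given in the sources used. Per the labels' protocols, poly(A) RNA was used and the pools were independent biological samples, so the spread behind a p-value is that between pools.

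FPKM keeps no read number and whole reads could not be recovered for most genes, so no count test was run. Steps in values under 0.15 FPKM gave the relative depth of the libraries. Values were taken as log2(FPKM + 1), which understates fold changes of low genes. Genes with FPKM 1 or more in at least 3 libraries (13278) were fitted with limma 3.58.1 in R 4.3.3, 4 group means over all 12 libraries (8 residual degrees of freedom), with an intensity trend. There were 5 comparisons, with two-sided tests, Benjamini-Hochberg adjustment over the 13278 genes in each, and a threshold of 0.05. The fit was tested on simulated data. The Hox members and the gene lists were chosen with earlier results of these data known. Values in every library are given for Hox genes past the threshold in any comparison and for the highest gene of each cluster, and of each list the called members, in the order of their p, and the highest. Some genes under this rule are counted but not reported here. Other genes named were chosen after their values were seen. Alternatives were a pseudocount of 0.1, no filter, a mean FPKM of 5, equal sums, quantile normalization, only the populations compared, a replicate block, the mesenchyme score and each library left out. Promoters are from RefSeq, and since the build of the values differs, no gene coordinates are given.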

Additional observations from a re-analysis of the deposited data

How the results depend on the processing

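The number of called Hox genes between HC GFP+ and GFP- (2) was 1 with no filter, 4 with quantile normalization and 1 to 3 when 1 library was left out. Between EC GFP+ and GFP- (6) it was 3 with no filter, 1 with only the EC libraries, and 2 to 10 when 1 library was left out. Between HC GFP+ and EC GFP+ (0) it was 1 with no filter (Hoxb13), 1 with quantile normalization (Hoxd8), 1 with only the GFP+ libraries (Hoxa9), and 0 to 1 when 1 library was left out. Between HC GFP- and EC GFP- (1) it was 0 with no filter, 2 with equal sums (Hoxa9 and Hoxd10), 0 with only the GFP- libraries, and 0 to 1 when 1 library was left out. The difference of GFP effects stayed at 0 calls. The Hox sum of EC GFP- was 185 FPKM with equal sums in place of 203. Among the differences recomputed for Hox genes called or of paralog number 9, 1 changed sign. The difference of the GFP effects on Hoxc9 (-0.05, not called) turned to 0.0506 with a pseudocount of 0.1, and it ranged from -0.20 to 0.14 when 1 library was left out, above 0 without HC GFP+ replicate 3, HC GFP- replicate 1, EC GFP+ replicate 3 or EC GFP- replicate 2. The cause of these changes was not tested.

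Replicate numbers are shared between populations, and whether they pair the libraries was not settled. Deviations from the group means correlated at -0.084 to 0.27 over 18 pairs with the same number, 4 of them over 0.1. The highest were between replicate 2 libraries, HC GFP- with HC GFP+ (0.27) and with EC GFP- (0.20). Pairs with different numbers reached 0.22, and 6 of 12 libraries correlated best with one of their own number. Replicate 2 also had the lowest mesenchyme score in each population. The main fit had no replicate block. With a replicate block the calls were 2, 8, 0, 2 and 0 in the 5 comparisons, and Hoxd10 was called between HC GFP- and EC GFP- (adjusted p = 0.0498, over its alternatives 0.0335 to 0.204). FPKM keeps no read number, so what depth limits could not be computed, and the pseudocount of 1 understates differences of low genes such as Hoxc9.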
